A study of Drosophila melanogaster with 3 samples.

Results

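The trithorax group keeps developmental genes active against Polycomb silencing. Its histone-modifying members and one reader were examined here as targets of GAGA factor: trx, ash1, ash2, Utx, fs(1)h, trr and Set1, 7 of the 13945 protein-coding genes on the 6 chromosome arms. The rule names them by the known roles of their products and uses no peak value, but the choice was made with earlier results of these data known. A peak was given to a gene when its summit lay in the gene body or within 2 kb of it (Ensembl release 115, dm6 coordinates), and a peak could therefore be given to neighbouring genes as well. By this rule the 7 genes held 13 of the 4900 peaks that passed the authors' reproducibility threshold, called optimal peaks here, and 50 of the 30000 peaks of the relaxed pooled list, which includes background calls. Together these 50 are the 13 optimal peaks and 37 below the threshold.

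The gene Trithorax-like (Trl) encodes GAGA factor, which binds GA-rich DNA and is itself classed with the trithorax group. Its binding was mapped by ChIP-seq with an anti-GFP antibody in 3 biological replicates of whole Drosophila melanogaster embryos of mixed sex, aged 0 to 24 h. All replicates came from the strain Trl-MiMIC-GFP, in which an eGFP exon inserted in an intron of Trl gives a Trl-GFP fusion, so every value is that of the tagged protein from 1 insertion line, averaged over all cell types and ages of the collection. There was 1 group and no second condition, and therefore no test between conditions. Each replicate had its own list of 30000 peaks. Sequencing depth is unknown, because a peak list holds no read totals, and the signal, whose scale is not stated, was used to rank peaks within a list (rank 1 is the strongest).

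Trithorax group histone modifiers act in large complexes. Trx, Trr and Set1 are the catalytic subunits of the fly COMPASS-family complexes, which methylate histone H3 at active genes, and Ash2 is a core subunit shared by these complexes. Ash1 is a separate histone H3 methyltransferase, Utx removes the methyl mark that Polycomb proteins place and works with the Trr complex, and fs(1)h encodes the fly BET protein, a bromodomain reader of acetylated histones.

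At least 1 optimal summit was found at 6 of the 7 genes, all but Set1, against 37.7% of all protein-coding genes. With gene bodies alone the count was 3 of the 7, since every optimal summit of ash1, ash2 and trr lay outside the gene. At least 2 optimal summits were found at 4 of the 7 genes (fs(1)h, trx, ash2 and trr), against 12.9% of all protein-coding genes. Start sites had an optimal summit no more than 500 bp away at 5 of the 7 (trx, ash2, Utx, fs(1)h and trr), against 22.9% of all protein-coding genes. Within 100 bp the count was 2 of the 7 (ash2 and fs(1)h), and in the stronger 2450 optimal peaks it was 2 (trx and fs(1)h). For gene bodies alone, the 100 bp window and the stronger peaks, the share of all protein-coding genes is not given here. The 37.7% and 22.9% do not apply to those counts. A pooled summit of any strength was present at 6 of the 7 genes, against 79.1% of all. The 7 genes are long, with a median length of 7983 bp against 2166 bp for all protein-coding genes, and a longer gene has more room for peaks. They also have more annotated start sites, with a median of 3 against 1, so more places where a promoter summit is counted. With 1 start site per gene the promoter count was 4 of the 7 (trx, ash2, fs(1)h and trr). The share of all genes at that setting is not given here. Per kb of gene and flanks the 7 genes held 0.119 optimal and 0.458 pooled summits, against 0.0546 and 0.286 over all protein-coding genes. Among the 5 shorter genes (ash1, ash2, Utx, trr and Set1), 4 held an optimal summit and 3 had one at a start site. Of the 3189 protein-coding genes of 3 to 9 kb, 46.4% held an optimal summit and 31.1% had one at a start site. At least 2 optimal summits were found at 15.2% of the genes of 3 to 9 kb. Of the 267 genes of 20 to 27 kb, the class used for trx and fs(1)h, 34.8% had at least 2. Both length classes were set after the values were seen.

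**Figure D1:**
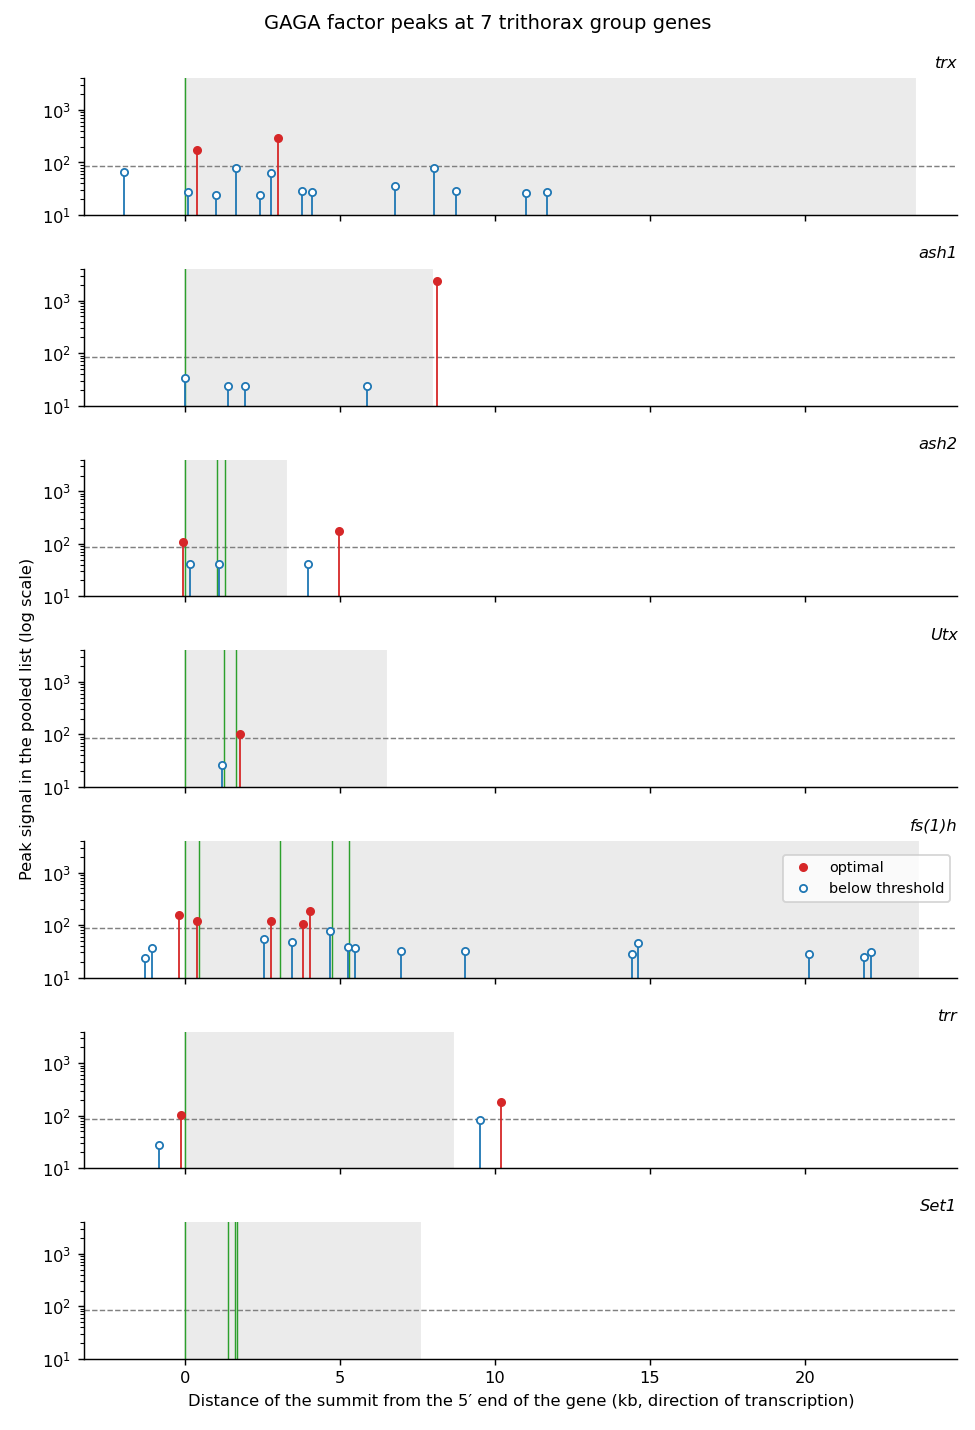
Peak signal in the pooled list (vertical axis, log scale) against the distance of the summit from the 5′ end of each gene (horizontal axis, kb). Grey areas are gene bodies, green lines annotated start sites, filled red points optimal peaks, open blue points peaks below the threshold, and the dashed line is the lowest optimal signal, 86.2. The 7 optimal summits inside a gene all lie nearer to its 5′ than its 3′ end (74.1% over all protein-coding genes), the ash1 peak lies just past the 3′ end, and Set1 has no peak.

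Sequences within 100 bp of the summit are printed for trx and fs(1)h, the longest genes of the group, so that strong peaks with few or no GAGAG matches can be set beside weaker peaks with many. They are taken from the RefSeq release 6 genome and given on the plus strand of dm6, in lower case with GAGAG or its complement CTCTC in capitals, and without annotated UTR bases.
trx intron, rank 602 of the optimal peaks (chr3R:14283795-14283995): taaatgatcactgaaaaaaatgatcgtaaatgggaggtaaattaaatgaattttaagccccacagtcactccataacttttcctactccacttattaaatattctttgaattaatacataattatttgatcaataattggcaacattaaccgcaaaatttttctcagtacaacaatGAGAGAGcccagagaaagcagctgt
trx intron, below the threshold (chr3R:14278751-14278951): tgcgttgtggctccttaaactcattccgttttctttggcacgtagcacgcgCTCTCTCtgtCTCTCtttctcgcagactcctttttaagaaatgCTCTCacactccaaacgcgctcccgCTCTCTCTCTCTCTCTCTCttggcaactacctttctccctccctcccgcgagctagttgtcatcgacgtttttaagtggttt
fs(1)h upstream of an internal start site, optimal (chrX:8060975-8061154): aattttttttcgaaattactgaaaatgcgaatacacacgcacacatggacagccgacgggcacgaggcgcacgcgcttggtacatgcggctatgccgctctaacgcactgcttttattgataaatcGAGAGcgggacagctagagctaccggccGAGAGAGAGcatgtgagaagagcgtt
fs(1)h intron, below the threshold (chrX:8057863-8058063): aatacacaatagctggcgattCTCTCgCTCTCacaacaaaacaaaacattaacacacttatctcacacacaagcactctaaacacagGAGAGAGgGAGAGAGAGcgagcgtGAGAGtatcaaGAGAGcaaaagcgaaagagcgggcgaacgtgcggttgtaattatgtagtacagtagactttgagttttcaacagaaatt
fs(1)h intron, strongest optimal peak of the gene (chrX:8057298-8057498): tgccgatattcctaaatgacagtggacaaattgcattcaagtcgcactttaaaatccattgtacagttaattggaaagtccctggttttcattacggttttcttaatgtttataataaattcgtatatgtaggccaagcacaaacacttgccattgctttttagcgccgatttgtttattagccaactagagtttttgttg

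The strongest trx peak held no match closer than 78 bp to its summit, and the strongest fs(1)h peak held none. Counting overlapping matches separately, so that GAGAGAG is 2 matches, the printed peaks below the threshold had 12 matches in trx and 9 in fs(1)h. The sequences were picked to show this range and do not stand for all peaks of these genes. The optimal trx peak in the 5′ UTR, not printed, had 7 matches. Many weaker peaks had none: trx peaks 5, 9, 10 and 15 and fs(1)h peaks 7, 12 to 16, 18 and 19, all below the threshold.

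The methyltransferase gene trx (FBgn0003862, minus strand of 3R, 14263358 to 14286903) had its strongest peak in an intron, 3008 bp downstream of its single annotated start site. This peak covered 14283798 to 14284016 and had rank 602 of the optimal peaks, with a signal of 290.4. Its rank was 816, 396 and 671 in replicates 1, 2 and 3. The second trx peak covered 14286314 to 14286723 in the 5′ UTR, 384 bp from the start site, and stood at rank 1626. It ranked 1704, 1962 and 1541 in the replicates. Both peaks were thus among the top 4900 in every replicate, and the intronic peak was the stronger in all 3.

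Below the threshold trx had 13 further pooled peaks. The 2 strongest of these, at ranks 5658 and 5673, lay 1665 and 8052 bp into the gene, in introns. They reached the top 4900 in replicate 3 alone, at ranks 3815 and 3549. Another, at rank 7058, lay 206 bp from the start site of the neighbouring gene red. No pooled summit lay more than 11684 bp from the 5′ end of this gene of 23546 bp, so all 14 pooled summits inside trx fell nearer to its 5′ than its 3′ end. In fs(1)h 11 of 16 did so (68.8%), and over genes of 20 to 27 kb 61.2% of pooled summits inside the gene. The list of replicate 3 held 2 weak trx calls nearer to the 3′ end, 15356 and 20222 bp into the gene, at ranks 28271 and 27038. That of replicate 2 held a weak call 745 bp past the 3′ end, at rank 23020.

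The BET gene fs(1)h (FBgn0004656, minus strand of X, 8037808 to 8061436) carried the most peaks of the group, with 5 optimal and 19 pooled summits. Of the 267 protein-coding genes of 20 to 27 kb, 6.37% had at least 5 optimal summits, and their median was 1. The 5 fs(1)h summits spread over 4221 bp at the 5′ end. The gene has 5 annotated start sites, and those furthest into the gene lay outside that stretch, 697 and 1261 bp from the nearest optimal summit. The strongest peak covered 8057193 to 8057602 in an intron, 697 bp upstream of the nearest internal start site, and stood at rank 1451 of the optimal peaks. It ranked 1668, 866 and 2003 in replicates 1, 2 and 3.

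The second fs(1)h peak, 8061414 to 8061823, lay 183 bp upstream of the first fs(1)h start site but only 26 bp upstream of that of mys, which encodes an integrin beta subunit. It stood at rank 1924, and at ranks 1845, 1438 and 2377 in the replicates. The peak at 8060849 to 8061258 lay 80 bp upstream of an internal start site and stood at rank 3048. It was uneven between replicates, at ranks 2744, 6674 and 1307. The peak at 8058460 to 8058869 lay 307 bp upstream of another internal start site at rank 3166, and ranked 2787, 5976 and 2726. Both of these peaks were weakest in replicate 2, where they fell outside the top 4900.

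The fifth fs(1)h peak, 8057407 to 8057816, stood at rank 3644 and overlapped the strongest one by 196 bp, with summits 214 bp apart. The replicate peak with the nearest summit ranked 12211, 1881 and 6680 in replicates 1, 2 and 3. Replicate 2 was the only one to place this summit among its top 4900. In that replicate the fs(1)h peaks with summits 4051 and 3832 bp into the gene both ranked high, whereas the other replicates had a strong call at the first position alone. A peak below the threshold 37 bp from an internal start site, at pooled rank 5810, likewise reached the top 4900 in replicate 2 alone, at rank 3448.

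Other optimal summits lay in intergenic DNA next to a start site, of the member or of its neighbour. Their sequences are printed, except that of the ash2 peak next to CG6695. They are again on the plus strand of dm6 and within 100 bp of the summit, and show the stretches beside these start sites. None of the printed sequences holds GAGAG on either strand.
ash1 and CG14100, intergenic (chr3L:19590525-19590720): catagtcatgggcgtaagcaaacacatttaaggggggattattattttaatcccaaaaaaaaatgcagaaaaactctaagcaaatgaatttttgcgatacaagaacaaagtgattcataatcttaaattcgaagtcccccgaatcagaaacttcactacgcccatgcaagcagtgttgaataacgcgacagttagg
ash2 and puf, between the start sites (chr3R:24650044-24650124): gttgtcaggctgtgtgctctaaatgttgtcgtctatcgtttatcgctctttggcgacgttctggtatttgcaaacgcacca
fs(1)h and mys, upstream of mys (chrX:8061519-8061644): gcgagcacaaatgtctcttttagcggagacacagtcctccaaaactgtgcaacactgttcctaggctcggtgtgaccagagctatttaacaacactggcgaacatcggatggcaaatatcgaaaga
trr, upstream (chrX:1889962-1890162): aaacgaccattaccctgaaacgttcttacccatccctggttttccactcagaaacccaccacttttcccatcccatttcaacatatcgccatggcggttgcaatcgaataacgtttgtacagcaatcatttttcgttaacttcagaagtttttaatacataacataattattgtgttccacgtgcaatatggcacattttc

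The strongest peak of the group was given to ash1 by the 2 kb rule, and lay outside the gene. The methyltransferase gene ash1 (FBgn0005386, minus strand of 3L, 19590773 to 19598755) had 1 optimal peak, at 19590416 to 19590821, with a signal of 2320 and rank 3 of 4900. It ranked 3, 3 and 2 in replicates 1, 2 and 3, the smallest spread of the 13 peaks. Its summit lay 153 bp past the 3′ end of ash1 and 8135 bp from the ash1 start site, but 96 bp upstream of the start site of CG14100. At the ash1 start site itself the pooled list had a summit at the annotated base, at rank 17657 with a −log10 q-value of 0.329. Of the replicate lists, only that of replicate 1 had a peak overlapping it, at rank 8507.

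The complex subunit gene ash2 (FBgn0000139, plus strand of 3R, 24650125 to 24653376) also shared its peaks. Its promoter peak, 24649878 to 24650287 at rank 3682, had its summit 42 bp upstream of the first ash2 start site and 40 bp upstream of that of puf, a deubiquitinase gene transcribed away from it. The printed sequence is the whole stretch between the start sites of the pair. This peak ranked 2884, 7498 and 3532 in replicates 1, 2 and 3 and was outside the top 4900 in replicate 2. The stronger ash2 peak, 24654889 to 24655298 at rank 1593, lay 1718 bp past the 3′ end and 66 bp upstream of the start site of CG6695. It ranked 1143, 2790 and 1732 in the replicates. The strongest ash2 peak below the threshold, at pooled rank 12788, lay 50 bp from an internal ash2 start site and ranked 6673, 24553 and 19634.

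The methyltransferase gene trr (FBgn0023518, minus strand of X, 1881313 to 1889950) had a promoter peak at 1889857 to 1890266, 112 bp upstream of its start site, at rank 3720. It ranked 3408, 3397 and 4818 in replicates 1, 2 and 3, within the top 4900 each time. A stronger peak at 1879547 to 1879956, rank 1508, lay 1561 bp past the 3′ end of trr, in the 5′ UTR of CG14818. It ranked 2614, 1411 and 1351 in the replicates. Between them, at 1880241 to 1880650, lay the peak of the group closest to the threshold from below, with a signal of 81.6 and pooled rank 5228. It lay 85 bp from the start site of Coa8 and reached the top 4900 in replicate 3 alone, at rank 3772. An optimal peak at rank 2919 lay 3982 bp past the 3′ end of trr, outside the 2 kb window.

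The demethylase gene Utx (FBgn0260749, minus strand of 2L, 10272325 to 10278811) had 1 optimal peak, at 10276826 to 10277235, 130 bp downstream of the most internal of its 3 start sites. With a signal of 101.2 and rank 3933 it was the weakest of the 13 optimal peaks. It ranked 5404, 4627 and 3116 in replicates 1, 2 and 3, so that it missed the top 4900 of replicate 1. The first Utx start site lay 1780 bp from this summit and had no optimal peak within 500 bp. The other pooled peak of Utx, at rank 25305, lay 51 bp from a start site and overlapped a call of replicate 3 alone, at rank 20258.

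Set1 (FBgn0040022, plus strand of 3L, 25107594 to 25115180) had no summit in the optimal or pooled list. The nearest pooled summit lay 5576 bp past the gene, and the nearest optimal summit 2228714 bp away. The replicate lists held 2, 2 and 1 calls within 2 kb of Set1 in replicates 1, 2 and 3, all below the top 4900. The strongest in each ranked 6160, 8950 and 6791. Those of replicates 1 and 3 lay 837 and 1035 bp past the 3′ end, and that of replicate 2 lay inside the gene.

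Set1 lies towards the centromeric end of 3L, 2995047 bp from the last base of the arm. Beyond 24 Mb on 3L, none of 22 protein-coding genes had an optimal summit and 9 had a pooled one. Soft-masked repeats made up 22.6% of the Set1 gene and flanks, against a median of 11.6% over all protein-coding genes. For fs(1)h, the member with the most summits, the masked share was 23.4%. How well short reads can be placed there was not tested, so a missing peak at Set1 cannot be read as missing binding.

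**Figure D2:**
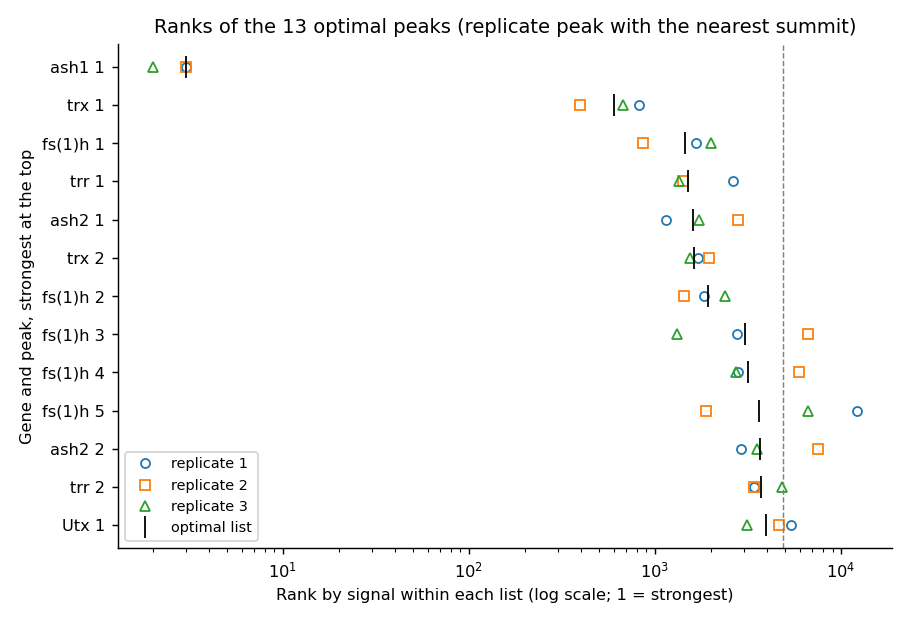
Rank by signal (horizontal axis, log scale, 1 is strongest) of each of the 13 optimal peaks, labelled by gene and by order of strength within the gene, in replicates 1, 2 and 3 (open symbols, the overlapping peak with the nearest summit) and in the optimal list (black bars). The dashed line marks rank 4900. The ash1 peak sits at ranks 2 and 3 in every list, while fs(1)h peak 5 spreads from 1881 to 12211.

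Ordered by the strongest peak of each gene, the percentiles within the replicate lists (100 is the strongest peak) averaged 99.99 ± 0.00192 for ash1, 97.9 ± 0.711 for trx, 94.96 ± 1.95 for fs(1)h, 94.0 ± 2.38 for trr, 93.7 ± 2.78 for ash2 and 85.4 ± 3.88 for Utx (SD, n = 3 each). The values of fs(1)h, trr and ash2 lay within 1 SD of each other. The trx peak ranked above the fs(1)h peak in all 3 replicates, and the Utx peak below all of the others in all 3. The optimal list derives from the same 3 replicates, so these high percentiles are not independent of it. The median rank of the 13 peaks was 1924, against 2450 for all optimal peaks. The strongest peaks of ash1, trr and ash2 lay past the 3′ end, next to the start sites of CG14100, CG14818 and CG6695. Those of trx and fs(1)h lay in introns, 3008 and 697 bp from the nearest start site of the gene. The order above is therefore not one of peaks at the members' own promoters. The strongest promoter peaks of trx and fs(1)h averaged 94.2 ± 0.708 and 93.7 ± 1.57, that of fs(1)h lying nearer to the start site of mys. The promoter peaks of trr and ash2 averaged 87.1 ± 2.72 and 84.5 ± 8.33, and ash1 had no optimal promoter peak.

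All 13 optimal peaks overlapped a peak in each replicate list, as did 99.7% of all optimal peaks. Of the 37 peaks below the threshold 17 did so (36.95% of such peaks in the whole pooled list). Taking the replicate peak with the nearest summit, 8 of the 13 were in the top 4900 of all 3 replicates, 4 in that of 2 replicates and 1 in that of 1 replicate. The matching shares of all optimal peaks are not given here, so whether 8 of 13 is usual for optimal peaks is unknown. Of the 4 peaks missing from a single replicate, 3 were missing from replicate 2 (ash2 peak 2 and fs(1)h peaks 3 and 4) and the Utx peak from replicate 1. The top 4900 peaks of each replicate placed 11, 11 and 15 summits at the 7 genes in replicates 1, 2 and 3.

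**Figure D3:**
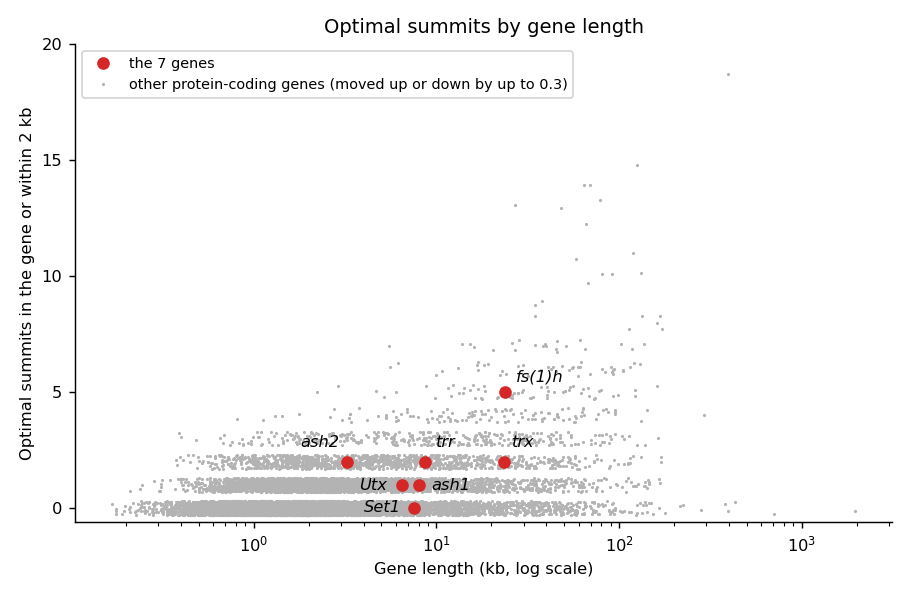
Optimal summits in the gene or within 2 kb (vertical axis) against gene length (horizontal axis, kb, log scale) for the 7 genes (red) and all other protein-coding genes (grey, moved vertically by up to 0.3 to separate points). The points of fs(1)h and trx have nearly the same length but 5 and 2 summits.

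Some of the peaks lay closer to the start site of another gene. The nearest protein-coding start site was that of the member itself at 8 of its 13 optimal summits (61.5%), against 51.6% of the 8305 pairs of a protein-coding gene and an optimal summit within 2 kb. The other 5 summits lay nearest to CG14100, CG6695, puf, mys and CG14818. By position, 7 of the 13 summits lay inside the member, 3 upstream and 3 past the 3′ end. Over all pairs the shares were 36.6% inside, 42.5% upstream and 20.99% past the 3′ end. All 3 summits past a 3′ end (ash1, ash2 and trr) lay within 100 bp of the start site of another gene.

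By length and number of summits, the genes most like fs(1)h were Pax, zfh1 and CG5445, each with 5 optimal summits. Their distance, summed over the absolute log2 ratios of gene length, optimal summits and pooled summits, was 0.129, 0.182 and 0.201, among 5253 genes compared. Pax (25844 bp) had 19 pooled summits, and zfh1 (23277 bp) and CG5445 (22980 bp) had 17 each.

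The pentamer GAGAG, which GAGA factor is known to bind, was found on either strand at most 100 bp from 4 of the 13 optimal summits (30.8%, exact 95% binomial interval 9.09 to 61.4). The 4 were the 2 trx peaks and fs(1)h peaks 3 and 4, numbered by strength. Within 50 bp of the summit the count was 2 of the 13, and the share of all optimal peaks at that setting is not given here. Within 100 bp the share among all optimal peaks was 32.6%. In windows centred 1000 bp from their summits, where these met no optimal peak, it was 22.3%. Among the 37 peaks below the threshold it was 16 (43.2%, interval 27.1 to 60.5), against 28.2% of all pooled peaks below the threshold. The intervals of the optimal and the weaker peaks at these genes overlap, and they cover counting error only, since neighbouring peaks share sequence.

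Counted in the same way, the trx peak in the 5′ UTR had 7 matches, fs(1)h peak 3 had 4, the strongest trx peak had 2 and fs(1)h peak 4 had 1. At least 5 matches were found at 1 of the 13 optimal peaks (7.69%), against 6.27% of all optimal peaks. They were found at 5 of the 37 peaks below the threshold (13.5%), against 2.65% of all such peaks. These 5 were all in trx or fs(1)h, led by the trx peak at pooled rank 5673 with 12 matches. The fs(1)h peak at pooled rank 10688 had 9 matches and ranked 12211, 1881 and 6406 in replicates 1, 2 and 3 by its strongest overlapping peak, which in replicates 1 and 2 is the call that lies nearest to fs(1)h peak 5.

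The longer repeat GAGAGAG was present at 3 of the 13 optimal summits (23.1%, exact 95% interval 5.04 to 53.8), against 11.2% of all optimal peaks. It was present at 7 of the 37 peaks below the threshold (18.9%, interval 7.96 to 35.2), against 6.08% of all such peaks. The DRE, TATCGATA, bound by the factor DREF, was present at none of the 13 (upper limit of the exact 95% interval 24.7%), against 4.55% of all optimal peaks. The core of promoter Motif 1, GGTCACAC, was present at 1, the peak between fs(1)h and mys (3.16% of all optimal peaks). A match here is only a run of letters in the window.

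Over whole genes with 2 kb to either side, GAGAG was most frequent in trx (80 matches, 2.90 per kb) and fs(1)h (73 matches, 2.64 per kb). It stood at 2.21 per kb in ash2, 2.09 in ash1, 1.29 in Set1, 1.11 in trr and 0.858 in Utx. The median over all protein-coding genes was 1.31 per kb. Set1, with no pooled peak, thus had more matches per kb than trr, which had 2 optimal peaks, and Utx, which had 1.

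**Figure D4:**
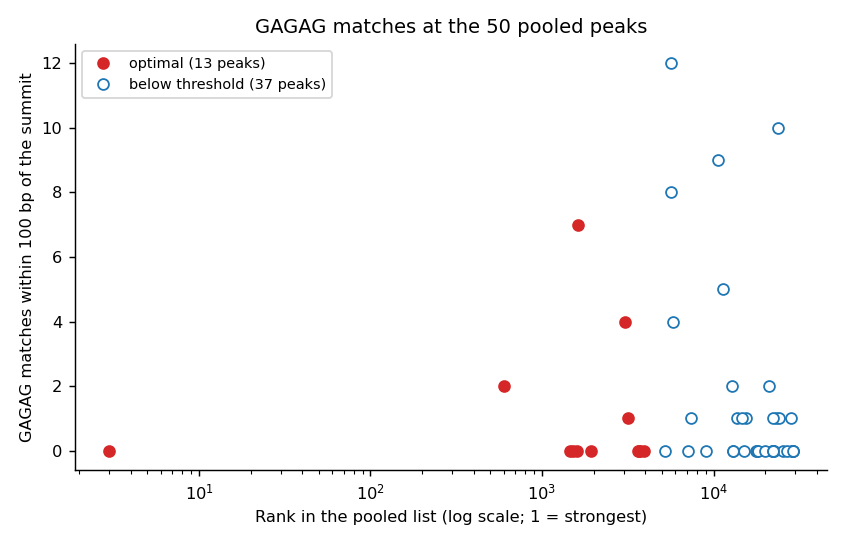
Number of GAGAG matches within 100 bp of the summit (vertical axis) against rank in the pooled list (horizontal axis, log scale) for the 13 optimal peaks (filled red) and the 37 peaks below the threshold (open blue) at the 7 genes. The peak at rank 3 has no match, and the 12 matches at rank 5673 lie below the threshold.

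The complexes of the 7 proteins have other subunits and partners. A list of 18 genes held some of these, and also further trithorax group genes such as skd and kto, which act with Mediator. All 18 are called partner genes here, so their counts are not those of the complexes alone. A second list held 11 genes of other histone methyltransferases. Promoters were bound (a start site with an optimal summit at most 500 bp away) at 5 of the 18 partner genes (27.8%), against 22.9% of all protein-coding genes. The top 4900 peaks of replicates 1, 2 and 3 gave 5, 8 and 5. The partner genes had a median length of 6194 bp. The 5 bound ones were skd, a Mediator kinase module gene, Rbbp5 and Dpy-30L1, which encode core COMPASS subunits, Mnn1, the fly menin gene, and nej, which encodes the histone acetyltransferase CBP. Their promoter peaks stood at ranks 1255, 2083, 2925, 2928 and 3252 of the optimal peaks, in that order. Those of Rbbp5 and Dpy-30L1 lay nearest to the start sites of eRF1 and EMC3. An optimal summit anywhere within 2 kb was found at 10 of the 18 partner genes (55.6%), with 7 at skd, and at 8 of the 11 other histone methyltransferase genes (72.7%), against 37.7% of all protein-coding genes.

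In the group described here 5 of 7 genes had a bound promoter (71.4%), against 7 of the 11 genes of other histone methyltransferases (63.6%). The top 4900 peaks of replicates 1, 2 and 3 gave 4, 4 and 5 of the 7, against 7, 6 and 6 of the 11. The list of 11 had a median length of 4457 bp. Hmt4-20, which encodes the methyltransferase Suv4-20, had the strongest promoter peak of the list at rank 198, and ranks 189, 149 and 263 in replicates 1, 2 and 3. E(z), the Polycomb group methyltransferase gene, followed at rank 1710, then Art4 at 2656, G9a at 2707, Su(var)3-9 at 2951, Set2 at 3577 and Art1 at 4391. The peaks of Su(var)3-9 and Set2 lay nearest to the start sites of Set and CG1998. Some fell outside the top 4900 of a replicate: G9a at 6323 in replicate 2, Set2 at 5161 in replicate 3, and Art1 at 6585 and 5710 in replicates 1 and 2. The gene gpp, which encodes the Dot1 methyltransferase, held 6 optimal summits but none at a start site, and is named after its values were seen. In the optimal list the trx promoter peak, at 1626, ranked ahead of each of these promoter peaks but that of Hmt4-20. The order of trx and E(z) was not stable between replicates. The E(z) peak was ahead in replicates 1 and 2 (1544 against 1704, and 1685 against 1962) and behind in replicate 3 (2834 against 1541). The lists are short and were chosen with results known, so the counts are given as a description with no test.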

How the data were processed

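Per the labels, chromatin was sonicated to 200 to 800 bp and recovered with an anti-GFP antibody in 3 biological replicates. The authors deposited peak lists as input for IDR (irreproducible discovery rate) for each replicate and for the pool, and an optimal list thresholded by IDR, per the deposited text notes. Which aligner and peak caller were run is not given in the sources used here. Each peak carries the authors' deposited signal, used for rank within a list, and the authors' deposited −log10 q-value. Peak files have no read totals, so no depth could be given. The optimal list equalled the top 4900 pooled peaks by signal. The dm3 lists, the signal tracks and the control were not used here.

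Gene models were those of Ensembl release 115, and sequence from the RefSeq release 6 genome (dm6). No dm6 peak ended beyond an arm of that genome. A replicate peak was matched when it shared at least 1 bp, taking the strongest; the match by nearest summit was added after the data were seen. Of the 2 lists, lid and PR-Set7 were matched by synonym (Kdm5, Set8). Genes named were the 7 members with every optimal peak and the strongest weaker ones, the bound genes of the lists (at most 8 each), the genes nearest to a peak and the 3 most like fs(1)h; other weaker peaks, and the gene gpp, were picked from their values. The members and lists were chosen with earlier results of these data known. Exact binomial (Clopper-Pearson) intervals at 95% cover counting error only. Python 3.11.15, pandas 2.3.3, numpy 2.4.6 and scipy 1.17.1 were used, and the counting code was tested on simulated data.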

Additional observations from a re-analysis of the deposited data

How the results depend on the processing

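With gene bodies alone, without the 2 kb, 3 of the 7 genes (trx, Utx and fs(1)h) held an optimal summit and the number of summits was 7 in place of 13. In the stronger 2450 optimal peaks the 7 genes held 7 summits, a bound promoter was counted for 2 genes (trx and fs(1)h) in place of 5, and GAGAG stood at 2 summits in place of 4, since that list holds fewer peaks. With a promoter window of 100 bp 2 genes (ash2 and fs(1)h) were bound, and with a motif window of 50 bp GAGAG stood at 2 summits. The 5 kb window, a promoter window of 1000 bp, a wider motif window, 1 start site per gene and the top 4900 of each replicate gave counts within 1.5 times of these. Among the percentiles of single peaks, matching by summits within 100 bp moved 4 by more than 1 SD (fs(1)h peaks 4 and 5 and both ash2 peaks), and a reciprocal overlap of 0.5 or the nearest summit moved fs(1)h peak 5. Leaving out a replicate moved 1 beyond 1 SD, the ash1 peak, whose SD is 0.00192. No paired analysis was possible because there is 1 group. The unknown depth limits what a missing or weak peak can show.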
